A study of Homo sapiens with 4 samples.

Results

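The UNC13 family comprises UNC13A, UNC13B, UNC13C and UNC13D, the human genes for the Munc13 proteins. Its members here were the H3K27ac regions that the authors had assigned to these 4 genes, 9 of the 91107 distinct regions of the authors' deposited table. UNC13A has 4 regions, UNC13B 3 and UNC13D 2, and the table analysed has no line for UNC13C. The family was chosen by the fold change and p-value of the region at the UNC13A start, so every fold change and call below is a description and carries no test of the choice. The assay was chromatin immunoprecipitation with sequencing for H3K27ac, a histone H3 acetylation found at active promoters and enhancers, in A375 cells, an established line from a human melanoma. Per the labels, 2 libraries came from cells given isopropanol as the vehicle and 2 from cells given 1 mM octanoate, a medium-chain fatty acid, each for 48 hours. All 4 libraries come from 1 unmodified cell line, and the labels do not say whether the libraries of a group were separate cultures.

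Munc13 proteins prepare secretory vesicles for fusion: their MUN domain helps to open syntaxin so that the SNARE complex can form. UNC13A, UNC13B and UNC13C are best known from synapses, where diacylglycerol and calmodulin tune their activity, and UNC13A is mainly neuronal. UNC13B is found more widely, and UNC13C is best known from the cerebellum. UNC13D works outside the nervous system, in the release of lytic granules from lymphocytes, and its loss causes an inherited immune disorder, familial haemophagocytic lymphohistiocytosis.

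The authors' deposited table gives for each region a mean level over libraries, a log2 fold change with its standard error, and p-values. It has no value per library and no depth. Spread between replicates is therefore unknown, and each error below is the standard error of the authors' model. The numerator of the fold change is not named, so changes are called positive or negative. Of the regions in the authors' deposited table, 36436, those with a mean level of at least 18.44, carry an adjusted p and are called tested regions below. A tested region counts as called where its adjusted p is under 0.05. Over the tested regions, the authors' deposited table gives a median log2 fold change of 0.32. Values are also given relative to this median, the common shift. Of 9 melanocyte and melanoma markers, 5 had a region at their start in the authors' deposited table, from S100B at a mean level of 55.2 to SOX10 at 774, and MLANA, TYR, TYRP1 and DCT had none there. Of 7 lymphocyte and keratinocyte markers, 0 had a region at the start in the authors' deposited table, and of 5 neuronal markers 1 had, SNAP25. Of 3 neuroendocrine markers 2 had, CHGB and INSM1, at mean levels of 16.99 and 4.11 in the authors' deposited table.

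The promoters of 3 of the 4 members matched the RefSeq promoter table (GRCh38.p14, the same build as the hg38 of the submitters' processing notes), and the 250 bases before the start are shown because the data bear on what lies there: UNC13A has the region with the large fold change, UNC13B a region with a smaller one and UNC13C none. CpG dinucleotides, which are dense in CpG island promoters, are in capitals. The UNC13A sequence lies at chr19:17688355-17688604 on the minus strand, that of UNC13B at chr9:35161759-35162008 on the plus strand, and that of UNC13C at chr15:53978191-53978440 on the plus strand.
UNC13A: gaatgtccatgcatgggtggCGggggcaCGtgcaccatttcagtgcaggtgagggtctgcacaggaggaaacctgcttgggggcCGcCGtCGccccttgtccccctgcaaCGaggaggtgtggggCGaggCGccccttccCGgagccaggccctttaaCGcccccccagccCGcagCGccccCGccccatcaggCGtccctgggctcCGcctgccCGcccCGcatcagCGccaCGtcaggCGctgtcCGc
UNC13B: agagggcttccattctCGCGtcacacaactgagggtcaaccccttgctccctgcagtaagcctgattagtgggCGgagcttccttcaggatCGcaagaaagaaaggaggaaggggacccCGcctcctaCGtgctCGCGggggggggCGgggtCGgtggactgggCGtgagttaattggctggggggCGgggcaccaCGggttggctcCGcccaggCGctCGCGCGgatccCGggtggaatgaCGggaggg
UNC13C: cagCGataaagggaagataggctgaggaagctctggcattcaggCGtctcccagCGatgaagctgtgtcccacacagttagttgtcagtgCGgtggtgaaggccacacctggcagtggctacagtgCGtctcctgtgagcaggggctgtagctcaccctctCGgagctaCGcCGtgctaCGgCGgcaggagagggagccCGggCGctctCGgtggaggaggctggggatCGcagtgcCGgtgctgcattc

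The 250 bases held 21 CpG in UNC13A, 20 in UNC13B and 15 in UNC13C. Over the whole 300-base window of the RefSeq table, from 250 bases before to 50 after the start, GC content was 73.0% for UNC13A, 67.0% for UNC13B and 62.0% for UNC13C, beside a median of 58.7% over 35116 promoters. The UNC13A window was thus richer in GC than 86.4% of promoters, and richer in CpG than 73.8%. UNC13B has 2 further promoters in the RefSeq table, at chr9:35227465-35227764 and chr9:35341646-35341945, with 1 and 5 CpG, and the authors' deposited table has no region over either.

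Motifs were searched on both strands of these 300-base windows, 5 in all, which belong to UNC13A, UNC13B and UNC13C. UNC13D has no entry in the RefSeq promoter table and was not searched. The RE1 element, the site bound by the repressor REST at many neuronal genes, consists of a left block and a right block, searched here as TTCAGCACC and GGACAGCGC. The left block occurred in 0.376% of promoters and the right block in 0.581%. Both occurred on 1 strand within 30 bases of each other in 5 of 35116 promoters (0.0142%), those of UNC13A, GRIA2, LHX3, TPH2 and SCG3, which were counted after the UNC13A sequence had been seen. The blocks are in capitals below, 5′ to 3′ on the strand of each gene, and in UNC13A and GRIA2 they stand on the opposite strand, so the right block comes first.
UNC13A: GCGCTGTCCgcgcccccGGTGCTGAA
TPH2: TTCAGCACCagggttctGGACAGCGC
SCG3: TTCAGCACCcacagggcGGACAGCGC
GRIA2: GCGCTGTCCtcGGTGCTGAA
LHX3: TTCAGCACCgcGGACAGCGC

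The blocks of UNC13A, TPH2 and SCG3 were 8 bases apart and those of GRIA2 and LHX3 were 2 bases apart. GRIA2 encodes a glutamate receptor subunit, LHX3 a transcription factor of pituitary and motor neurons, TPH2 the neuronal enzyme of serotonin synthesis, and SCG3 a granin of secretory granules. The UNC13A pair (chr19:17688340-17688365) spans bases -11 to 15 around the RefSeq start, counted with no base 0, and lies inside the deposited region at the start. Of these 5 genes, 1 had a region at its start in the authors' deposited table, UNC13A. GRIA2 had 7 regions there, the nearest 2.10 kb from its start with a log2 fold change of 0.75 ± 0.40 (standard error), and 0 of them were called. LHX3 had 1 region in the authors' deposited table, 12.6 kb from its start, with a log2 fold change of 2.48 ± 1.02 at a mean level of 3.66 and without an adjusted p, and TPH2 and SCG3 had no line in it. A match is a property of the letters and does not show that REST binds there.

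Of the other motifs, the E-box CACGTG, which reads the same on both strands and is a core of sites of MITF and MYC, occurred in the UNC13A window from base -224, in none of the other members' windows and in 7.26% of all promoters. The GC box GGGCGG occurred in the windows of UNC13A and of the first UNC13B promoter and in 45.0% of promoters, and CCAAT in that of UNC13B and in 34.6%. The block AGGTCA is bound by nuclear receptors such as PPAR as a repeat. It had no match in any of the 5 windows and occurred in 13.8% of promoters. As a direct repeat with 1 base between the copies it occurred in 0.0228%, none of them a promoter of UNC13A, UNC13B or UNC13C. TGACGTCA (cAMP response element, 1.85% of promoters), TGANTCA (AP-1, 7.71%) and TATAAA (11.5%) had no match in the members' windows.

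UNC13A, whose product is the main priming factor of glutamatergic synapses, had the largest fold changes of the family. The region over its start (chromosome 19, 17685785 to 17688806, 3021 bases) had a log2 fold change of 2.03 ± 0.27 (standard error) at a mean level of 65.2 in the authors' deposited table, where its adjusted p was 2.24e-09. This is a ratio of 4.09, or 3.27 after division by the common shift. In the authors' deposited table it ranked first by fold change among the 9996 tested regions that overlap a start, and it was the third highest of all 36436 tested regions. The 1.67% of tested regions called in the authors' deposited table, 1.65% when only positive calls are counted, form the background of this and the following calls. Among the 9996 tested regions at starts, 0.86% were called in the authors' deposited table.

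The other UNC13A regions lie inside the gene, which RefSeq places at 17601336 to 17688354 on chromosome 19 and which is read towards lower coordinates. Exons and introns were not analysed here. The region 7.64 kb from the start (17679463 to 17680731) had a log2 fold change of 1.37 ± 0.34 (standard error) at a mean level of 32.1 in the authors' deposited table and was also called, with an adjusted p of 0.0111. The region 71.4 kb from the start (17616133 to 17617005) had 0.90 ± 0.41 at a mean level of 19.3 in the authors' deposited table, and its adjusted p of 0.225 missed the threshold. The region 81.3 kb from the start (17605413 to 17607064), near the far end of the gene, had 0.62 ± 0.28 at a mean level of 52.1 in the authors' deposited table and an adjusted p of 0.226. The 4 fold changes were thus lower at each step away from the start, which was itself chosen for its fold change. Among the regions inside the gene, the standard error ranges of neighbours overlap, so the order of neighbours is not resolved. From the authors' deposited table, the start exceeded the region at 7.64 kb by 0.66, with a standard error of 0.43 if the regions are taken as independent, and the region at 81.3 kb by 1.42 with a standard error of 0.39. The regions come from the same libraries, so they are not independent measurements.

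Relative to the common shift of 0.32, the 4 UNC13A regions of the authors' deposited table stood at 1.71, 1.04, 0.58 and 0.29 in order of distance. After this centring, 0.124% of tested regions were called in values computed from the authors' deposited table. Of the family this left the UNC13A start (adjusted p 1.57e-05). The region at 7.64 kb then had an adjusted p of 0.286 computed from the authors' deposited table.

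UNC13B, the more widely found synaptic paralog, had 1 region at its start (chromosome 9, 35161318 to 35163791), with a log2 fold change of 0.56 ± 0.28 (standard error), a mean level of 53.7 and an adjusted p of 0.263 in the authors' deposited table. It was not called, and it stood 0.24 above the common shift. The other UNC13B regions were weak. The 1 that lies 2.72 kb from the start (35164717 to 35165028) had a mean level of 4.12 and a log2 fold change of 0.02 ± 0.85 in the authors' deposited table. The 1 that lies 114 kb from the start (35276352 to 35277117) had a mean level of 11.2 and a log2 fold change of 0.37 ± 0.53 in the authors' deposited table, and neither had an adjusted p. In both, the standard error exceeds the fold change.

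UNC13D, the paralog of lytic granule release, had a region over its start (chromosome 17, 75843924 to 75846798) that is also listed for WBP2, the neighbouring gene for a WW-domain binding protein. In the authors' deposited table it had a mean level of 72.4 and a log2 fold change of 0.17 ± 0.26 (standard error), with an adjusted p of 0.683. This value is positive as deposited and negative, -0.15, relative to the common shift. The second UNC13D region (75831367 to 75833017), 11.7 kb from the start and inside the gene, had 0.49 ± 0.35 at a mean level of 28.2 in the authors' deposited table and an adjusted p of 0.408. Neither region was called.

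UNC13C spans 796 kb of chromosome 15 in RefSeq (53837602 to 54633440). The authors' deposited table has 0 regions over this span and 0 assigned to the gene. Within 200 kb of the start used for the promoter above it has 1 region, 170 kb away and assigned to WDR72, with a mean level of 4.44.

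**Figure D1:**
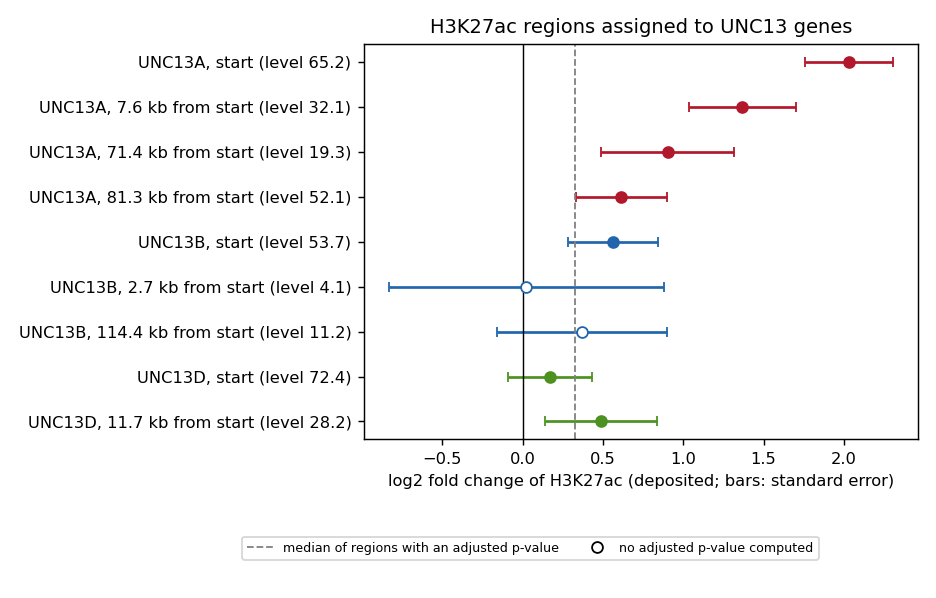
Log2 fold change of H3K27ac (horizontal axis) for the 9 regions assigned to UNC13A (red), UNC13B (blue) and UNC13D (green), with the authors' standard errors as bars; open points have no adjusted p, and the dashed line is the median of 0.32. The UNC13A start at 2.03 and the region 7.64 kb from it at 1.37 lie to the right of all other points, and the bars of the 5 UNC13B and UNC13D regions each cross the dashed line.

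In the family as a whole, 2 of the 7 tested regions were called in the authors' deposited table, both beside UNC13A. An unadjusted p under 0.05 was reached by 5 of the 7, all 4 of UNC13A and the start of UNC13B, where 18.4% of all tested regions of the authors' deposited table reached it. The median over the 9 regions was 0.56 in the authors' deposited table, and that over the 5 regions of UNC13B and UNC13D was 0.37, beside 0.28 over all 91107 regions. The starts of UNC13A and UNC13B differed by 1.47 with a standard error of 0.39, and those of UNC13A and UNC13D by 1.86 with a standard error of 0.38, both computed from the authors' deposited table and untested because UNC13A was chosen for its fold change. The starts of UNC13B and UNC13D differed by 0.39, about the size of its standard error of 0.38, so their order is not resolved.

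The mean level was not itself a criterion of the choice of the family, but it is not independent of that choice. It pools both groups, and only regions with a mean level of at least 18.44 carry an adjusted p. Per kilobase of region, the starts of UNC13A, UNC13B and UNC13D had mean levels of 21.6, 21.7 and 25.2 in the authors' deposited table, beside a median of 25.8 over all tested regions at starts. The 3 starts thus lay within a narrow range of this level, which is a mean over the vehicle and octanoate libraries together. Levels in each group are not given and need not lie within such a range. Without values per library the order of the 3 starts cannot be set against an error. Among all tested starts of the authors' deposited table, the UNC13A region was at percentile 32.4 for its mean level and 42.7 for its width, the UNC13B region at 23.1 and 28.6, and the UNC13D region at 38.2 and 39.1. All 3 were below the median start in both measures.

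**Figure D2:**
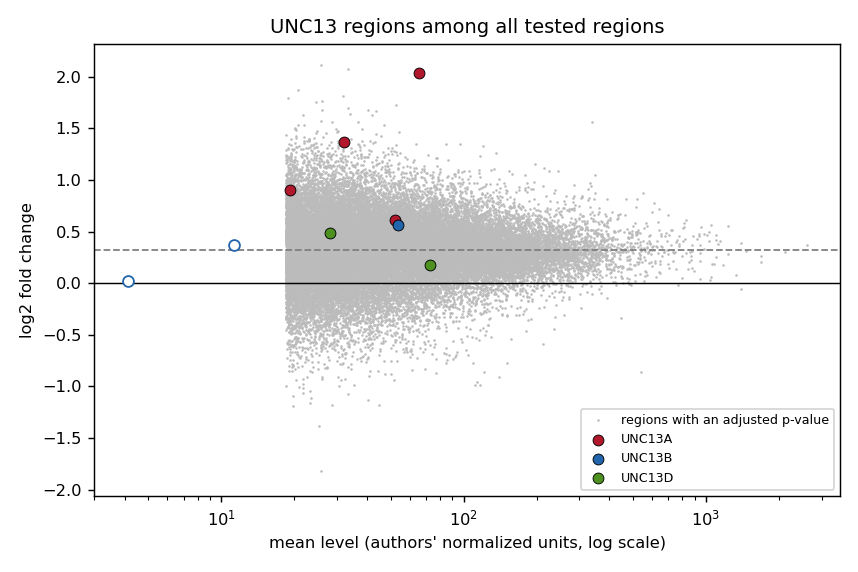
Mean level in the authors' normalized units (horizontal, log scale) against log2 fold change (vertical) for the tested regions (grey), with UNC13A in red, UNC13B in blue and UNC13D in green; open points have no adjusted p and the dashed line is the median of 0.32. The UNC13A start, at a mean level of 65.2, lies above the grey points of similar level, while the tested UNC13B and UNC13D regions lie among them. The 2 open UNC13B points, at mean levels of 4.12 and 11.2, lie to the left of all grey points.

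The neighbourhood was examined to ask whether the UNC13A fold changes stood alone on chromosome 19. Within 200 kb of the UNC13A start the authors' deposited table has 30 regions, 26 of them assigned to 10 other genes. The distances in the authors' deposited table place that start at 17688366, which is 12 bases from the RefSeq end of the gene. Of the 30 regions, which include the start that chose the family, 28 were positive and 26 exceeded the common shift. Without the UNC13A regions, 24 of 26 were positive (92.3%) and 22 exceeded the shift (84.6%). Elsewhere on chromosome 19, 85.2% of regions were positive and 59.5% exceeded the shift, and the shares over all regions of the authors' deposited table were 73.7% and 45.2%. The median was 0.72 over the 30 regions and 0.69 without the UNC13A regions, beside 0.40 elsewhere on chromosome 19 in the authors' deposited table. Regions of other genes within 100 kb had a median of 1.02 (8 regions), all regions from 100 to 200 kb 0.57 (18 regions) and those from 200 to 500 kb 0.51 (62 regions) in the authors' deposited table. Of the 8 regions within 100 kb, 7 were assigned to 1 gene, FCHO1, and 5 were not tested. Over tested regions only, these medians were 0.86 (3 regions), 0.67 (12 regions) and 0.50 (39 regions). Of the 19 tested regions of the authors' deposited table in this window, 3 were called (15.8%), of which 2 are UNC13A regions. Without the UNC13A regions, 1 of 15 was called (6.67%), beside 2.38% of tested regions elsewhere on chromosome 19 and 1.67% of all.

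On the side beyond the UNC13A promoter lay 20 of the 26 regions of other genes, among them all 8 within 100 kb. From 100 to 200 kb, where both sides have regions, the medians were 0.58 on the gene body side (6 regions) and 0.54 beyond the promoter (12 regions) in the authors' deposited table. Over tested regions only, they were 0.58 (4 regions) and 0.76 (8 regions). MAP1S, a microtubule-associated protein gene and the nearest other start, had a log2 fold change of 0.57 ± 0.23 (standard error) at its start, 30.2 kb from that of UNC13A, in the authors' deposited table. All 7 regions of FCHO1, which encodes a protein of clathrin-mediated endocytosis, had values from 0.86 to 1.48 in the authors' deposited table, from 48.9 to 95.9 kb away. The FCHO1 start had 1.24 ± 0.45 at a mean level of 17.6 in the authors' deposited table, just below the level at which testing began. The 2 tested FCHO1 regions of the authors' deposited table had log2 fold changes of 0.86 and 1.01, and their adjusted p was 0.0938 and 0.0625. FCHO1 thus has fold changes above the shift at every region and 0 calls, and 5 of its 7 regions were never eligible for one.

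The start of B3GNT3, a glycosyltransferase gene 107 kb away, was the third call of the neighbourhood, with 0.74 ± 0.22 (standard error), a mean level of 119 and an adjusted p of 0.0493 in the authors' deposited table. Recomputed from the authors' deposited table over all distinct regions, it had an adjusted p of 0.120 and was no longer called. Its other regions had 0.91 and 0.62 in the authors' deposited table. JAK3, a kinase of cytokine signalling in lymphocytes, had 5 regions from -0.21 to 0.89 in the authors' deposited table and none at its start. Towards the edge, the 2 regions of SLC5A5, the sodium iodide transporter gene, had 0.31 and -0.26 in the authors' deposited table at mean levels of 8.35 and 5.80.

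On the side of the UNC13A gene body and beyond it, 6 regions of other genes had values from 0.34 to 0.69 in the authors' deposited table, and none was called. GLT25D1, listed in RefSeq as COLGALT1 and encoding a collagen galactosyltransferase, had 0.64 ± 0.26 (standard error) at its start and 0.52 and 0.38 at its other regions in the authors' deposited table. The broad region of 10172 bases over the start of PGLS, an enzyme of the pentose phosphate pathway, had 0.69 ± 0.22 at a mean level of 409 in the authors' deposited table, where its adjusted p was 0.0780. That region is also listed for SLC27A1, a fatty acid transport protein gene, whose other region in the window had 0.34 ± 0.39 in the authors' deposited table. The region of FAM129C, listed in RefSeq as NIBAN3, had 0.69 ± 0.46 in the authors' deposited table without an adjusted p. The regions at the edges of the window, 189 kb and 182 kb from the start, had 0.34 and -0.26 in the authors' deposited table, and the next ones outside it, at 208 kb and 217 kb, had 0.24 and 0.53.

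**Figure D3:**
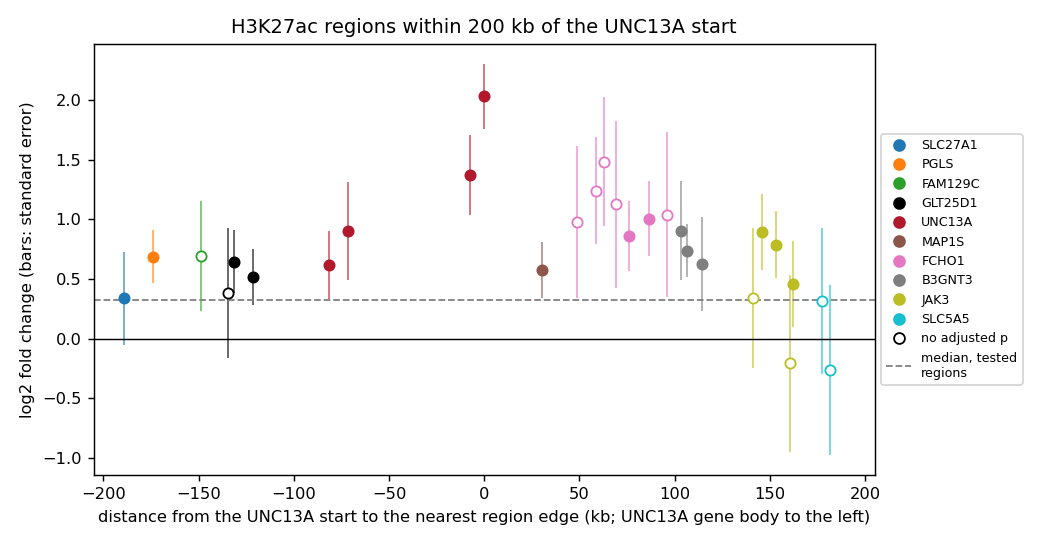
Log2 fold change (vertical, bars the authors' standard error) against distance in kb from the UNC13A start to the nearest edge of each of 28 regions drawn, coloured by assigned gene; open points have no adjusted p and the dashed line is the median of 0.32. UNC13A peaks at 0 kb with 2.03, FCHO1 forms a second group between 48.9 and 95.9 kb with values from 0.86 to 1.48, and 3 points lie below the dashed line.

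The same window around the paralogs gave lower medians than the 0.72 around the UNC13A start, which was chosen for its fold change. In the authors' deposited table, the 12 regions within 200 kb of the UNC13B start had a median of 0.38, with 0 of 8 tested regions called, and 7 of the 12 exceeded the common shift. For UNC13D, the authors' deposited table has 38 regions within 200 kb of the start, with a median of 0.20 and 0 of 22 tested regions called, and 14 of the 38 exceeded the shift. Over all regions, 45.2% exceeded the shift, and 1.67% of tested regions were called. In sets this small, 0 calls are near that share. Neighbouring regions share libraries, so the number of regions is not a number of independent observations, and none of these medians was tested.

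The regions at starts nearest to UNC13A in fold change were looked up as the 5 genes of most similar value, over this 1 comparison only. As UNC13A ranked first among tested starts, these were the genes with the next largest fold changes. They were HMX3, a homeobox factor of neural and inner ear development (1.87 ± 0.42, standard error), ANGPTL4, a secreted inhibitor of lipoprotein lipase (1.57 ± 0.20), and TMEM59L, a brain-enriched membrane protein gene (1.54 ± 0.47), in the authors' deposited table. The pair DPYSL2 and PNMA2, which share 1 region, followed at 1.50 ± 0.47 in the authors' deposited table. HMX3 and ANGPTL4 were called, and the adjusted ps of TMEM59L (0.0544) and of the DPYSL2 and PNMA2 region (0.0664) in the authors' deposited table missed the threshold. The HMX3, TMEM59L, DPYSL2 and PNMA2 regions had mean levels from 20.2 to 22.0 in the authors' deposited table, far below the 65.2 of UNC13A. The ANGPTL4 region had a higher mean level, 338, and its deposited adjusted p of 3.96e-10 was smaller than the 2.24e-09 of UNC13A.

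Other genes of vesicle exocytosis were described from a list of 80 genes in 7 role groups, of which 76 had 505 regions in the authors' deposited table. Of the 179 tested regions, 7 were called in the authors' deposited table, all positive, or 3.91% beside the background of 1.67%. In the authors' deposited table their median was 0.38, beside 0.32 over all tested regions. With the shift removed, 0 of the 179 were called in values computed from the authors' deposited table, and 2, those of MYRIP and MLPH, when p-values were adjusted over all distinct regions. Values named below are those of tested regions, and largest and smallest refer to these. Over all 505 regions, those of low level included, log2 fold changes ran from -1.90 to 1.98 in the authors' deposited table.

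Among the SNARE genes, whose products form the fusion complex that UNC13 proteins help to assemble, 2 of 33 regions were called in the authors' deposited table. They lie over the starts of SNAP25 (1.03 ± 0.30, standard error, mean level 63.2) and STX1A (0.88 ± 0.25, mean level 182), the plasma membrane SNAREs of neurons, with an adjusted p of 0.0470 and 0.0327. The largest tested value of the group in the authors' deposited table was 1.30 ± 0.45 at the start of STX11, a syntaxin of lymphocyte granule release, with an adjusted p of 0.104, and the smallest was -0.30 ± 0.33 beside SNAP47. Among calcium sensors, 2 of 14 regions were called in the authors' deposited table, beside SYT1 (1.04 ± 0.29, 21.7 kb from the start) and SYT5 (1.00 ± 0.29, 5.86 kb). In the authors' deposited table the tested values of this group ran from -0.67 ± 0.31 beside SYT11 to 1.10 ± 0.39 beside SYT7, whose adjusted p was 0.115.

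Among RAB3 and RAB27 and their effectors, which tether vesicles, 3 of 37 regions were called in the authors' deposited table. They lie beside MYRIP (1.77 ± 0.36, standard error), MLPH (1.12 ± 0.27) and RPH3A (0.79 ± 0.22), at 107, 24.3 and 262 kb from the starts. MLPH is a melanosome transport factor, MYRIP links RAB27A to myosins, and RPH3A encodes rabphilin, a RAB3 effector of synaptic vesicles. The smallest tested value of the group in the authors' deposited table was -0.50 ± 0.37 beside MYO5A, the motor of melanosome transport. MYRIP was nearest to a call after removal of the shift, with an adjusted p of 0.0556 computed from the authors' deposited table.

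In the remaining groups 0 regions were called in the authors' deposited table, out of 6 beside the other MUN-domain genes, 17 beside SNARE regulators, 39 beside active zone scaffolds and 33 beside diacylglycerol and calmodulin genes. An unadjusted p under 0.05 was reached by 3, 3, 5 and 6 of them. Of all tested regions, 1.67% were called and 18.4% reached an unadjusted p under 0.05. CADPS2 and CADPS, relatives of UNC13 that prime dense-core vesicles, gave the extremes among tested regions of their group in the authors' deposited table, with 0.76 ± 0.33 (standard error) at the CADPS2 start and -0.62 ± 0.29 at a region 91.7 kb from CADPS. Active zone scaffolds had the lowest median of tested regions, 0.25 in the authors' deposited table, with BSN at 1.13 ± 0.35 and PPFIA4 at -0.68 ± 0.27 as the tested extremes. Among SNARE regulators the highest tested value was 1.12 ± 0.36 beside CPLX4, and the tested regions of the last group ran from 0.85 ± 0.32 beside PLCB1 to -0.22 ± 0.31 beside PLCB4, in the authors' deposited table.

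**Figure D4:**
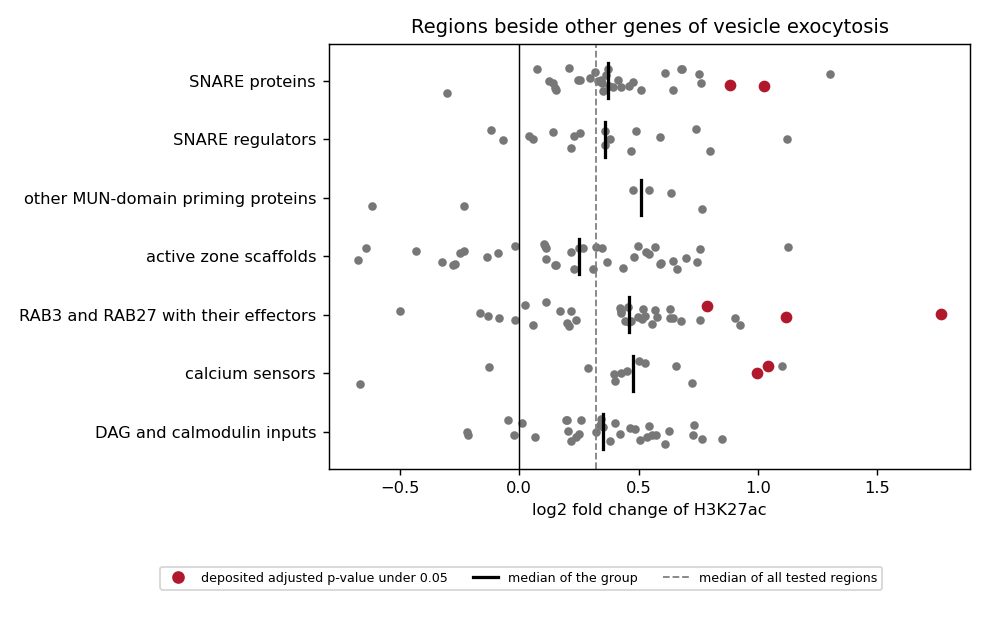
Log2 fold change (horizontal) of the 179 tested regions beside 7 groups of exocytosis genes, 1 point a region, spread vertically for visibility; red points are called, black bars are group medians and the dashed line is the median of 0.32. The 7 called regions lie in 3 groups and run from 0.79 for RPH3A to 1.77 for MYRIP, below the 2.03 of the UNC13A start.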

How the data were processed

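The file analysed is the authors' deposited table of 1 comparison over 95312 lines and 91107 distinct regions, lines that repeat a region for another gene being merged. The submitters' processing notes name Bowtie2, MACS2, featureCounts, DESeq2 and bedtools 2.29.1 among their tools and the build hg38, without roles. The mean level is a signal normalized by the authors; fold changes and standard errors are log2 values from the authors, per the file headers. The statistic is a score that the authors deposited, equal to the ratio of fold change to standard error. The deposited p-value follows from that score under a two-sided normal test, and the deposited adjusted p is its Benjamini-Hochberg adjustment over the 36436 regions where it is under 1. The value 1 was read as not computed. Regions at a distance of 0 were taken to overlap the start of their gene.

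The design provided for a description of the authors' comparison, and no test across libraries was possible. Calls are deposited adjusted p-values under 0.05. For centring, the median of 0.32 was subtracted, the standard error kept, and the normal p-value adjusted again over the same regions. The calculation was checked on simulated fold changes with a common shift and independent normal errors. That check does not show that these assumptions hold for these data. Values were computed with pandas 2.3.3 and scipy 1.17.1. Columns of single libraries left out number 0. Promoter sequences come from RefSeq (GRCh38.p14). The members, the gene lists and the settings were chosen with earlier results of these data known. Genes named are all members, all genes within 200 kb of the UNC13A start, the calls and extremes of each exocytosis group, and the 5 nearest starts by fold change; the genes sharing both RE1 blocks were added after the sequences were seen. Values of 2 genes that this rule names are not reported here, and the regions of 1 of them are not drawn, though counts and medians include them.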

Additional observations from a re-analysis of the deposited data

How the results depend on the processing

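The UNC13A start kept its direction and its call under every setting tried: 1.71 (adjusted p 1.57e-05) and 1.75 (3.91e-06) after centring on the median of the tested or of all regions, and an adjusted p of 5.59e-09 and 5.85e-09 over all distinct regions and all lines, computed from the authors' deposited table. The 2 calls of the family became 1 at a threshold of 0.01, under both centrings and with regions at a distance of 0 only, by loss of the region 7.64 kb from the UNC13A start. The 3 calls within 200 kb became 1 at a threshold of 0.01, under both centrings and without the UNC13A regions, and 5 in a window of 500 kb. The 7 calls of the exocytosis list became 2 at a threshold of 0.01, 0 and 1 under the centrings, and 2 over all distinct regions and over all lines. The median within 200 kb of 0.72 became 0.39 after centring, 1.02 in a window of 100 kb and 0.54 in a window of 500 kb. These follow from the construction of each setting. No paired analysis was possible because values of single libraries are not part of the table, and leaving out libraries was not run for the same reason. A mean level under 18.44 left 11 of the 30 regions near UNC13A, 5 of them of FCHO1, without an adjusted p.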
